A study of Glycine max with 12 samples.

Results

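The change shared by 2 transgenic events was examined in developing soybean seed by setting the mean of events e15 and e19 against nulls 4 to 6, which together are 9 of the 12 libraries of the series. Event e15 (line code 15A) and event e19 (line code 19A) each gave 3 libraries from seed marked HOM, and each is a single transformation event. The construct uses the GmUBQ promoter. The nulls carry line code 33A, and 3 of their 6 libraries, replicates 4 to 6, entered the comparison, while replicates 1 to 3 were set aside. All libraries came from Glycine max of genotype 93Y21 at 35 days after flowering and hold polyadenylated RNA read as single 100 bp reads. The labels do not say how line 33A relates to either event or whether replicates are separate plants, so p-values here reflect only how far these samples scatter, and that scatter may be technical. A change common to both events and a property of line 33A itself cannot be told apart.

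The construct concerns GmCGS2, a cystathionine gamma-synthase, in a form with a deletion. In plants this enzyme makes cystathionine from cysteine and phosphohomoserine, the step that commits carbon to methionine. In Arabidopsis, the messenger RNA of this enzyme is destabilised when methionine is plentiful, through a stretch near the start of its coding sequence, and forms that lack part of that stretch escape this feedback. Soybean storage proteins are poor in methionine and cysteine, and seed at mid-filling makes those proteins in bulk.

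Nulls 4 to 6 were chosen because these same measurements put them closer to the events, so the values that show the closeness are a description. Over 18 pairs of an event library with a null library, the correlation of log2 CPM (counts scaled to library size) across genes was 0.979 to 0.985 with nulls 4 to 6 and 0.973 to 0.983 with nulls 1 to 3. The median root mean square distance was 0.396 log2 units from nulls 4 to 6 and 0.454 from nulls 1 to 3. Replicate 3 of e19 was the exception, at a mean distance of 0.393 from nulls 4 to 6 and 0.375 from nulls 1 to 3. Distances were 0.400 to 0.434 between the events, 0.355 to 0.400 within e15, 0.397 to 0.405 within e19 and 0.333 to 0.343 within nulls 4 to 6. Total counts were 21988821 to 22849075 in e15, 19207771 to 21900491 in e19, 21640645 to 23276877 in nulls 4 to 6 and 21357512 to 22773561 in nulls 1 to 3. The level of the targeted gene was not checked against the labels, because none of the 52872 Glyma identifiers (0 matched) is paired with a name in the sources used here, and genes are given by identifier.

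Against nulls 4 to 6, 39 genes rose and 82 fell in the mean of the events, which is 0.384% of the 31496 genes tested (0.124% higher and 0.26% lower). A gene was called at a Benjamini-Hochberg adjusted p under 0.05 in edgeR's quasi-likelihood test, and 1818 genes had an unadjusted p under 0.05. Since the null set was picked on these values, a call here only sorts the genes, and no p of this contrast is printed for a gene or a share. The median log2 change was 0.67 over the 39 genes and -1.15 over the 82 genes, beside a median of 0.00 over all genes tested. Changes of at least 2-fold were found in 15 risen and 49 fallen genes, and changes under 1.5-fold in 13 risen and 16 fallen genes. The 6 event libraries did not overlap nulls 4 to 6 for 23 of the 39 risen genes and 60 of the 82 fallen genes, while over all genes tested 1.31% lay wholly above and 1.44% wholly below. The count of 121 was 78 without null replicate 4, and without e19 replicate 1 the split was 70 risen and 81 fallen. When the 6 event libraries formed 1 group, so that the difference between events counted as spread, it was 50 (14 risen and 36 fallen), all of them among the 121.

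**Figure D1:**
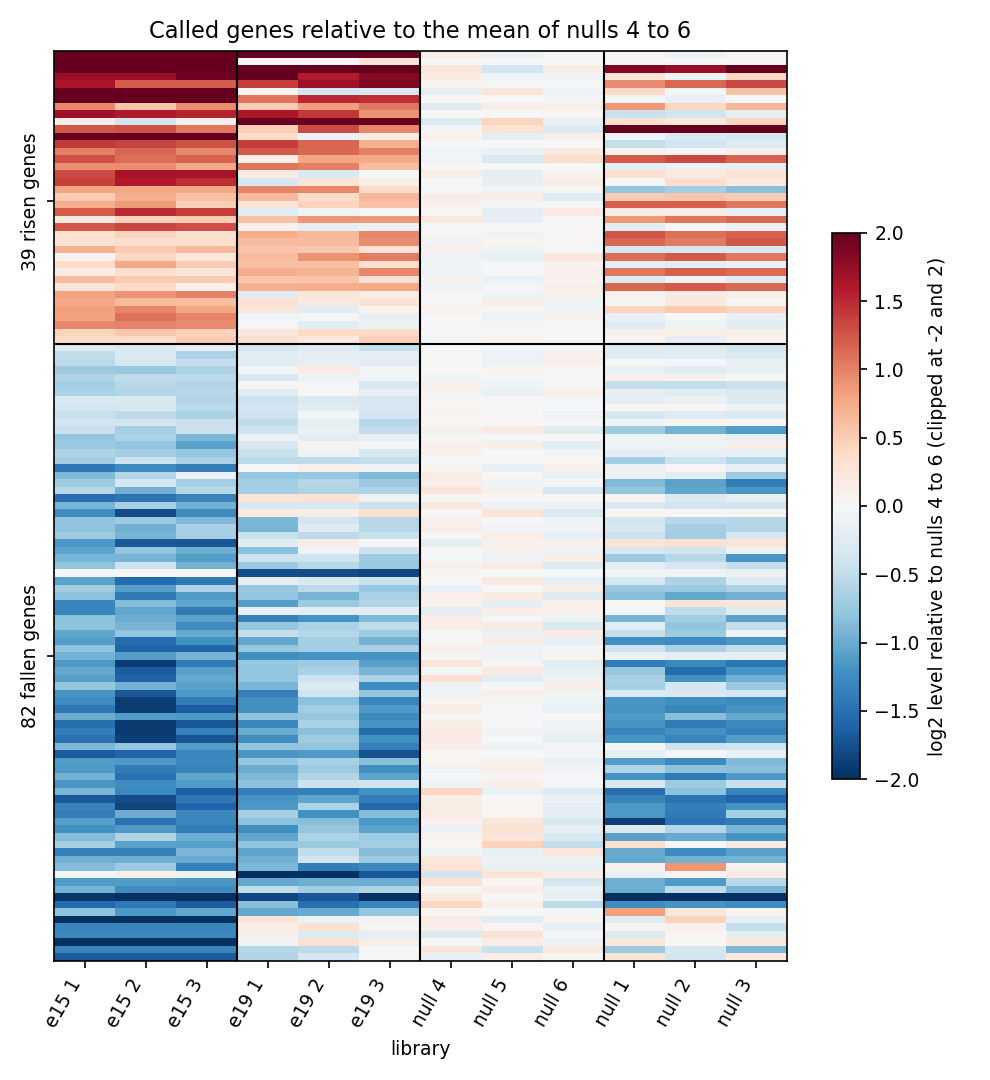
Levels of the 39 risen genes (top) and 82 fallen genes (bottom) in each library, as log2 CPM with 0.5 CPM added, relative to the mean of nulls 4 to 6 and sorted by fitted change. Red is higher and blue lower than nulls 4 to 6. Many fallen genes are as low in nulls 1 to 3 (right) as in the events (left), and the colours of e19 are paler than those of e15.

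The most abundant of the called genes were among those that rose. Of the risen genes, 4 had a group mean above 1000 CPM, 1 lay between 100 and 1000 CPM, 26 between 5 and 100 CPM and 8 below 5 CPM. Of the fallen genes, none was above 1000 CPM (0 of 82), 7 lay between 100 and 1000 CPM, 36 between 5 and 100 CPM and 39 below 5 CPM. The median over genes of the higher group mean was 11.8 CPM among genes that rose and 5.70 CPM among those that fell, beside 6.21 CPM for all genes tested.

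Glyma.20G076400 had the largest rise by the naming rule (called, mean of 5 CPM or more in the events or the nulls, groups not overlapping) and was near 0 in every null. It was at 9.76, 8.87 and 9.60 CPM in e15, at 9.05, 6.58 and 8.43 CPM in e19, and at 0.0926, 0 and 0.0445 CPM in nulls 4 to 6. Every event library held at least 125 counts of it and every null at most 2. The 6 event libraries held 1095 counts against 3 in nulls 4 to 6, a ratio of 191 with an exact 95% interval of 65.2 to 928, which covers counting error only. No difference between the events was called, with a log2 difference of e15 over e19 of 0.23 ± 0.13 (SE, adjusted p = 0.702 in edgeR's test). Nulls 1 to 3 held 2 counts together, and against all 6 nulls, the grouping the labels give, the adjusted p was 3.71e-15 in edgeR's test. All its deposited counts were whole numbers.

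Glyma.09G158900 was the most abundant risen gene. It was at 10503, 9993 and 9529 CPM in e15, at 10277, 8842 and 6446 CPM in e19 and at 3967, 3917 and 3917 CPM in nulls 4 to 6. All 6 event libraries lay above all nulls, and the lowest of them was e19 replicate 3. The log2 change was 1.24 ± 0.11 (SE, 6 event libraries against 3 nulls), with 1.35 in e15 and 1.12 in e19, comparisons that share their nulls. The log2 difference of e15 over e19 was 0.23 ± 0.12 (SE, adjusted p = 0.665 in edgeR's test). Nulls 1 to 3 were lower still, at 2823, 3012 and 3293 CPM, and against all 6 nulls the adjusted p was 9.76e-07 in edgeR's test. The preceding tested gene on chromosome 9, Glyma.09G158700, named after its values were seen, fell, at 93.7 CPM in the events and 251 CPM in nulls 4 to 6. Both genes had counts that were not whole in all 12 libraries, and whether they share reads was not tested.

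**Figure D2:**
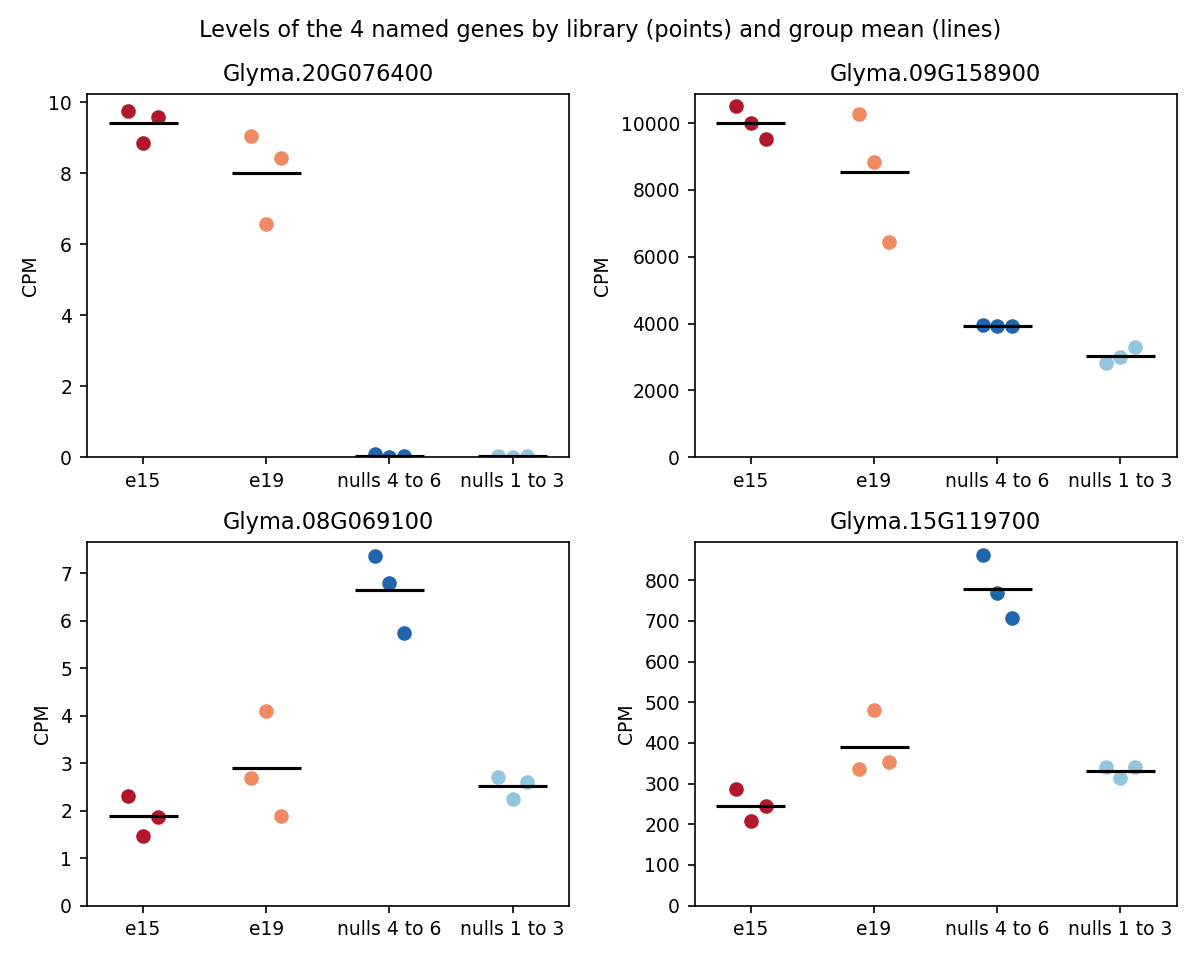
CPM of the 4 genes named by rule in each library (points) with group means (lines), in e15, e19, nulls 4 to 6 and nulls 1 to 3, on linear axes that start at 0. The risen genes (top) are above both null sets in every event library. The fallen genes (bottom) are below nulls 4 to 6 and at the level of nulls 1 to 3.

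The 3 other risen genes above 1000 CPM, named here after their values were seen, rose in each event taken alone. Glyma.16G208900 averaged 9016 ± 1011 CPM in the events (SD, n = 6) and 4845 ± 15.6 CPM in nulls 4 to 6 (SD, n = 3), a log2 change of 0.90 ± 0.10 (SE). Glyma.12G213600 averaged 6903 ± 979 CPM in the events and 3997 ± 123 CPM in nulls 4 to 6 (SD, n = 6 and 3), a log2 change of 0.79 ± 0.11 (SE). Glyma.14G117700 averaged 2952 ± 518 CPM in the events and 1056 ± 19.5 CPM in nulls 4 to 6 (SD, n = 6 and 3), a log2 change of 1.48 ± 0.12 (SE). For these 3 genes the log2 difference of e15 over e19 was -0.02 ± 0.11, -0.01 ± 0.12 and 0.26 ± 0.13 (SE), with adjusted p of 0.982, 0.990 and 0.633 in edgeR's test. Against all 6 nulls the adjusted p was 2.80e-07 for Glyma.16G208900 and 1.44e-06 for Glyma.14G117700, but 0.0660 for Glyma.12G213600, whose level was 2348 ± 123 CPM in nulls 1 to 3 (SD, n = 3), below that of nulls 4 to 6.

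Together the 4 abundant genes took 2.81% of the scaled counts in the events and 1.38% in nulls 4 to 6. By library the sum was 3.01%, 2.93% and 2.77% in e15, 3.15%, 2.92% and 2.10% in e19, and 1.39%, 1.37% and 1.39% in nulls 4 to 6. It was 1.02%, 1.07% and 1.07% in nulls 1 to 3. The sum was higher in each event library than in each null, with e19 replicate 3 nearest to the nulls. The 4 genes were chosen as risen in these libraries, so a higher sum than in nulls 4 to 6 follows from that choice.

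**Figure D3:**
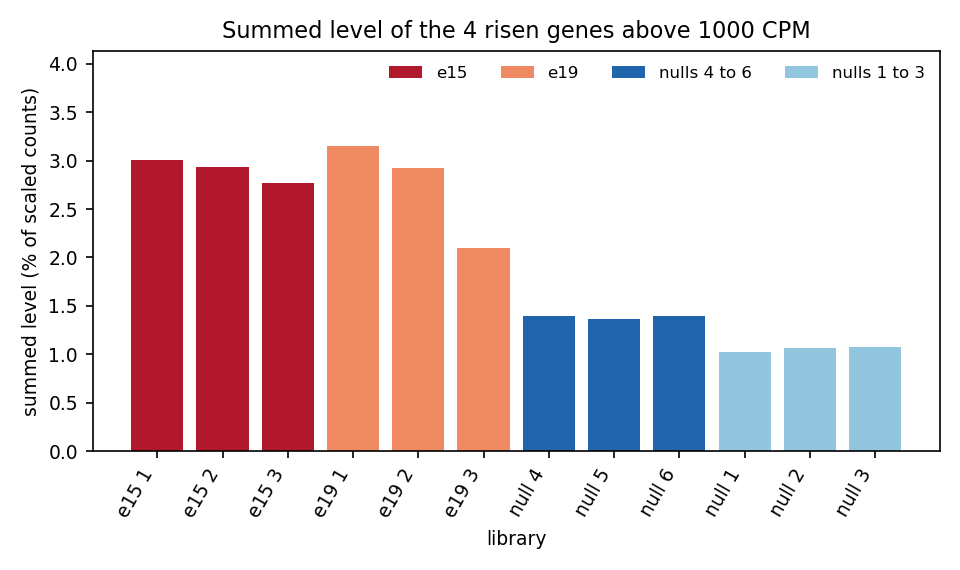
Summed level of the 4 risen genes above 1000 CPM in each library, as percent of TMM-scaled counts, with e15 and e19 left of nulls 4 to 6 and nulls 1 to 3 at the right. Each event bar is above each null bar, and e19 replicate 3, at 2.10%, is the lowest event bar. The genes were chosen as risen against nulls 4 to 6, so a sum above those nulls follows from the choice.

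Glyma.08G069100 had the largest fall by the naming rule. It was at 2.30, 1.47 and 1.87 CPM in e15, at 2.69, 4.10 and 1.89 CPM in e19, and at 7.36, 6.80 and 5.75 CPM in nulls 4 to 6. The event libraries were all below nulls 4 to 6, but nulls 1 to 3, at 2.71, 2.25 and 2.61 CPM, lay within the range of the events. The log2 change was -1.50 ± 0.17 (SE) against nulls 4 to 6 and -0.11 against nulls 1 to 3. Against all 6 nulls it was -0.96 (adjusted p = 0.481 in edgeR's test). The log2 difference of e15 over e19 was -0.61 ± 0.24 (SE, adjusted p = 0.456 in edgeR's test).

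Glyma.15G119700, the most abundant fallen gene, had a similar pattern over the libraries. It was at 286, 207 and 245 CPM in e15, at 335, 480 and 353 CPM in e19, and at 861, 768 and 708 CPM in nulls 4 to 6. Nulls 1 to 3 were at 341, 313 and 341 CPM, again within the range of the events. The log2 change was -1.33 ± 0.12 (SE) against nulls 4 to 6 and -0.84 against all 6 nulls (adjusted p = 0.442 in edgeR's test). The log2 difference of e15 over e19 was -0.66 ± 0.15 (SE, adjusted p = 0.0947 in edgeR's test). The tested genes just before and after it on chromosome 15, Glyma.15G119500 and Glyma.15G119800, also fell, by 1.45 and 1.36 on the log2 scale, and all 3 genes had counts that were not whole in all 12 libraries.

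The contrast of e15 with e19 compares levels of event libraries only, but its filter and its estimate of spread include nulls 4 to 6. The number of genes called was 216 in that fit, 341 with all 12 libraries and 145 with the 6 event libraries alone. By edgeR's test, e15 was above e19 for 58 genes (0.184%) and below it for 158 (0.502%), together 0.686% of the genes tested. Scaled by library totals only, the split was 58 and 94. The count of 216 was 106 without e15 replicate 3, and without e19 replicate 2 the split was 119 and 130. Among the 121 genes called against nulls 4 to 6, 38 differed between the events (31.4%), namely 18 of the 39 that rose and 20 of the 82 that fell. Both contrasts use the same event libraries and the same estimate of spread. Of the 18 risen genes 13 were higher in e15, and of the 20 fallen genes 18 were lower in e15. In 9 of these risen and 10 of these fallen genes, 1 event lay within 0.15 log2 units of nulls 4 to 6, so their mean change came mainly from the other event. The 6 fallen genes with a fitted log2 change at or below -3 all differed between the events and were lower in e15. Their means in nulls 4 to 6 were 0.736 to 7.31 CPM, and their log2 change in e19 was between -0.70 and 0.26.

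For the 83 called genes without a called difference between the events, 21 risen and 62 fallen, the test does not show that the events act alike. Among the 21 risen genes the median log2 change was 0.89 for e15 and 0.82 for e19. Among the 62 fallen genes it was -1.46 for e15 and -0.94 for e19. Set against nulls 4 to 6 one at a time, e15 had 76 risen (0.241%) and 175 fallen genes (0.556%), together 0.797% of those tested. For e19 the numbers were 39 risen (0.124%) and 32 fallen (0.102%), together 0.225%. The e15 count of 251 was 144 without null replicate 4 and 158 without e15 replicate 3. The e19 count of 71 was 38 without null replicate 4, 33 without null replicate 5, 45 without e19 replicate 3 and 109 without e19 replicate 2. The balance for e19 turned to 37 risen and 72 fallen without its replicate 2, and to 32 and 34 when scaled by library totals only.

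**Figure D4:**
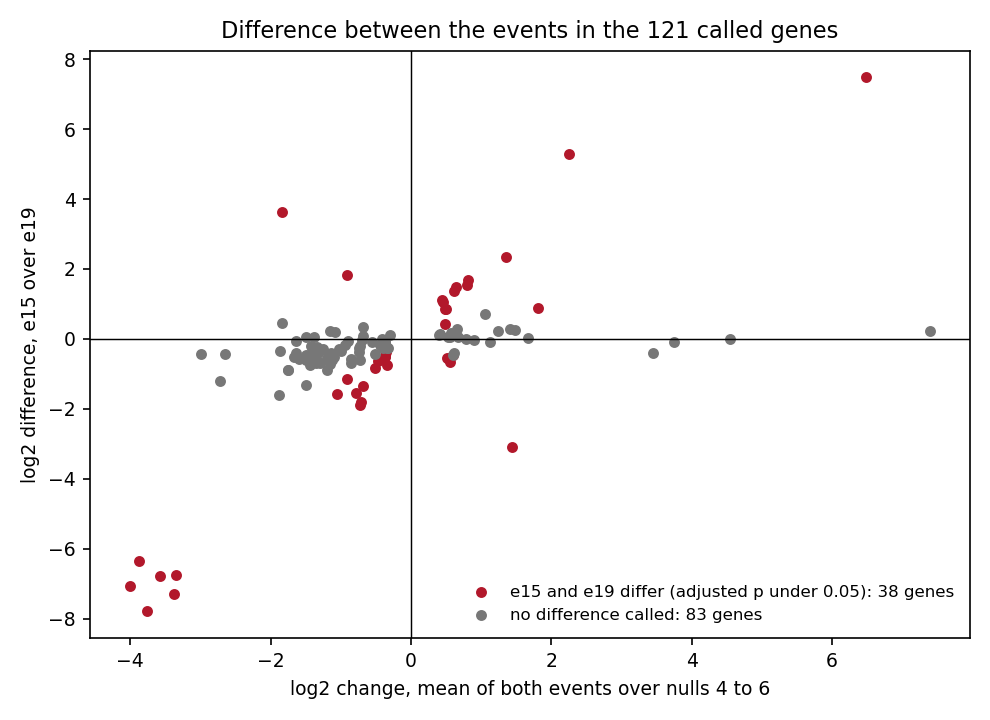
Log2 difference of e15 over e19 (vertical) against the log2 change of the mean of both events over nulls 4 to 6 (horizontal) for the 121 called genes. The 38 genes that differed between the events are red and the other 83 are grey. The 6 genes at the lower left have log2 changes in e19 between -0.70 and 0.26.

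The genes whose level differs most between e15 and e19 by the naming rule show what such a mean holds. Glyma.05G236500 was at 5.16, 5.59 and 5.17 CPM in e15 and had 0 counts in e19 and in all nulls. The mean of the events was not called for it, but that is not a result about its level. With 0 counts in e19 and the nulls, the fit gave a log2 change of 4.91 ± 10464 (SE). Glyma.17G173200, named after its values were seen, was at 7.60, 6.50 and 7.12 CPM in e15, 0, 0 and 0.102 CPM in e19 and 0 CPM in all nulls. It was called as risen in the mean. Glyma.06G273700 was at 0, 0.0948 and 0 CPM in e15 and at 6.89, 9.15 and 7.91 CPM in e19, against 7.22, 7.97 and 6.73 CPM in nulls 4 to 6, and was called as fallen in the mean. Glyma.09G235400 rose in both events, but not equally. It was at 219, 223 and 215 CPM in e15, at 97.1, 131 and 127 CPM in e19, and at 46.6, 46.1 and 45.04 CPM in nulls 4 to 6, so that the groups did not overlap. Its log2 difference of e15 over e19 was 0.89 ± 0.09 (SE, adjusted p = 7.24e-07 in edgeR's test). Glyma.05G166600, the most abundant gene lower in e15 than in e19, averaged 548 ± 44.1 CPM in e15 and 729 ± 105 CPM in e19 (SD, n = 3 each). Nulls 4 to 6 averaged 759 ± 33.96 CPM and nulls 1 to 3 averaged 491 ± 13.3 CPM (SD, n = 3 each). The means of both events thus lay between those of the null sets. Its log2 difference of e15 over e19 was -0.41 ± 0.10 (SE, adjusted p = 0.0432 in edgeR's test). Its call did not hold under 9 of 15 other settings, over which the adjusted p ranged from 0.00159 to 0.189.

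The nulls that were set aside give a second view of the called genes. In a fit of all 12 libraries in 4 groups, 26 of the 39 risen genes were also higher in the events than in nulls 1 to 3, 8 were lower and 5 were not called. Of the 82 fallen genes, 31 were also lower in the events than in nulls 1 to 3, 2 were higher and 49 were not called. In that contrast 10.9% of all genes were called (4.89% higher and 6.02% lower), and it shares its event libraries with the comparison above. Of the genes called the same way against both null sets, 13 of the 26 risen and 17 of the 31 fallen had a called difference between the events. With nulls 1 to 3 as the comparator, the median log2 change was 0.59 over genes that rose and -0.32 over those that fell. Of the 49 genes that fell at least 2-fold, 31 were not called against nulls 1 to 3. Nulls 1 to 3 were nearer to the events than to nulls 4 to 6 for 13 of the 39 genes that rose and 51 of the 82 that fell. The share of all genes tested for which this holds was not determined. The genes were chosen for nulls 4 to 6 lying away from the events, which favours such nearness. Nulls 4 to 6 were themselves higher than nulls 1 to 3 for 43 of the 82 fallen genes and lower for 0, in a contrast that shares nulls 4 to 6 with the calls. For the 39 risen genes they were lower than nulls 1 to 3 for 14 and higher for 3. Over all genes 9.59% differed there (4.51% higher and 5.08% lower).

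**Figure D5:**
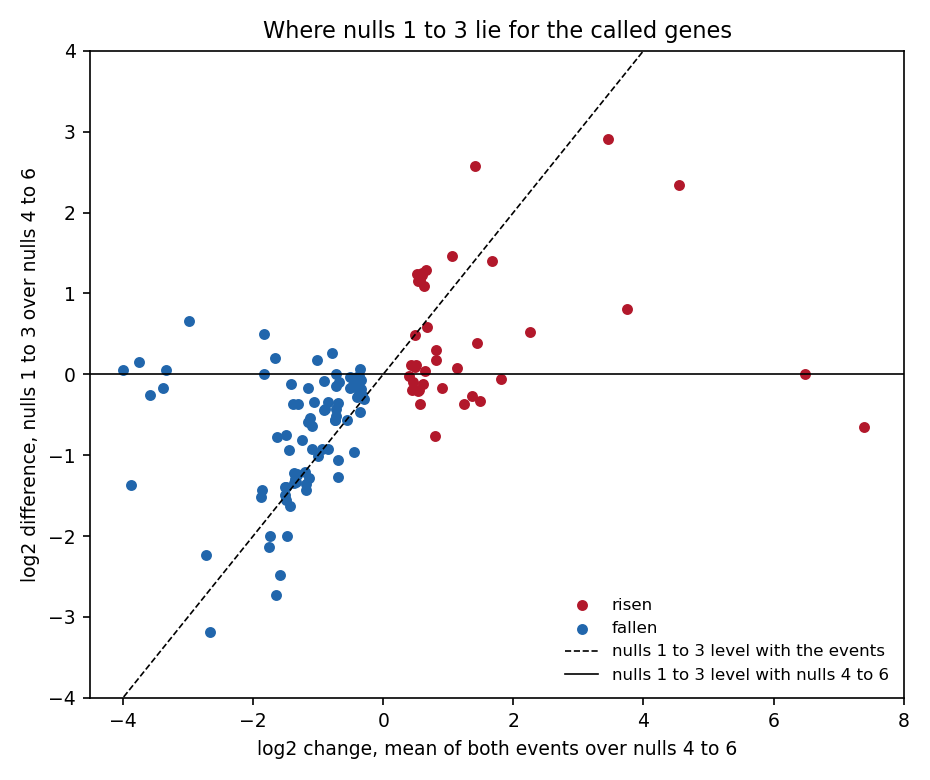
Log2 difference of nulls 1 to 3 over nulls 4 to 6 (vertical) against the log2 change of the mean of both events over nulls 4 to 6 (horizontal) for the 39 risen and 82 fallen genes. Both axes share nulls 4 to 6. Points on the dashed line have nulls 1 to 3 level with the events, as for many fallen genes, and points on the horizontal line have both null sets level.

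By library, the fallen genes had a median log2 level relative to nulls 4 to 6 of -0.95, -1.10 and -1.11 in e15 and of -0.78, -0.54 and -0.66 in e19. In nulls 1 to 3 this median was -0.34, -0.51 and -0.48. For the risen genes it was 0.94, 0.98 and 0.95 in e15, 0.55, 0.63 and 0.61 in e19, and 0.11, 0.14 and 0.11 in nulls 1 to 3. In nulls 1 to 3 the median of the fallen genes was below nulls 4 to 6, and the medians of both event groups were lower still. The median of the risen genes in nulls 1 to 3 lay near nulls 4 to 6, although single risen genes went both ways. These genes were chosen for a difference between the events and nulls 4 to 6, which sets the side of the event medians. The choice also favours genes with extreme levels in nulls 4 to 6, so nulls 1 to 3 can shift to the same side.

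Against all 6 nulls taken as 1 group, the grouping of the labels, 36 genes rose and 46 fell in the mean of the events (0.112% and 0.143%, together 0.255% of 32115 genes tested). Scaled by library totals only, the split was 23 and 62, and the median over all genes shifted to -0.11 on the log2 scale. The count of 82 was 53 without null replicate 1 and 54 without e15 replicate 3. Of the genes called against nulls 4 to 6, 25 of the 39 risen and 30 of the 82 fallen were called there in the same direction, and none in the other (0 and 0). That contrast holds all libraries in which these genes were called and adds only nulls 1 to 3. The shared direction thus follows largely from the choice of genes. Without a called difference between the events and with no overlap with any of the 6 nulls, 13 risen and 12 fallen genes were left. These genes had first been called against nulls 4 to 6, which favours a lack of overlap with those nulls. The share of all genes tested that lack overlap with all 6 nulls was not determined, so these counts have no background to be set against.

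Presence and absence were rare. With 10 counts or more in every event library and no more than 3 in any of nulls 4 to 6, there were 2 genes, Glyma.20G076400 and Glyma.16G082700. Glyma.16G082700, named after its values were seen, held 19 to 33 counts per event library and 2 or 3 per library in nulls 4 to 6, but 16, 21 and 25 counts in nulls 1 to 3. The opposite was found for Glyma.13G152508 and Glyma.07G050600, also named after their values were seen. Glyma.13G152508 held at most 3 counts in each event library, 13 or 14 in nulls 4 to 6 and 16 to 35 in nulls 1 to 3. Glyma.07G050600 held 10 counts in each of nulls 4 to 6 and at most 2 in each event library, and at most 3 in each of nulls 1 to 3, and was not called.

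The called genes were spread over all 20 chromosomes, read from the identifiers. Chromosome 14 held 2 risen and 8 fallen genes (0.818% of its tested genes) and chromosome 15 held 2 and 9 (0.757%), against 1 fallen gene on chromosome 1 (0.0744%). Of the fallen genes on chromosome 14, Glyma.14G093100, Glyma.14G096800, Glyma.14G099700, Glyma.14G112600 and Glyma.14G113600 were called lower in e15 than in e19. For Glyma.14G070500, Glyma.14G148300 and Glyma.14G206100 no such difference was called. Of the 121, 24 had a further called gene no more than 10 tested genes away, and 15 had one of the same direction, 13 fallen and 2 risen. No test of position was run, and the share of all tested genes with such a neighbour was not determined. Among the neighbours, Glyma.06G272500 and Glyma.06G273700 had a called difference between the events, while Glyma.15G119700 and Glyma.15G119800 did not. Counts were whole in all 12 libraries for 32 of the 121 called genes (26.4%), 8 risen and 24 fallen, so that levels of the others are uncertain where near-identical copies exist.

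The share of counts in the 20 most abundant genes was 45.1 ± 1.41% in the events (SD, n = 6) and 43.9 ± 0.375% in nulls 4 to 6 (SD, n = 3), a difference of 1.20 percentage points. No test is given, since nulls 4 to 6 were chosen for their closeness to the events. Of these 20 genes 3 rose and 0 fell, and their median log2 change was 0.02. The share was 39.1 ± 0.664% in nulls 1 to 3 (SD, n = 3), below all libraries of both events and of nulls 4 to 6.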

How the data were processed

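The authors deposited estimated counts of reads per gene for the 12 libraries in a single table. For 80.5% of the genes tested, at least 1 library had a count that was not a whole number (tolerance 0.0005). A stranded mRNA kit was used, per the labels' protocols. The identifiers carry the tag W82a4v1, and the aligner and counting program were not given in the sources used here. Counts were rounded, and filterByExpr kept 31496 of 52872 genes. The 9 libraries were fitted with 3 group means, TMM factors and the quasi-likelihood test with robust dispersion in edgeR 4.0.16 (limma 3.58.1, R 4.3.3), Benjamini-Hochberg threshold 0.05. DESeq2 (1.42.0) was an alternative. Standard errors were derived by dividing each log2 change by the root of its F. CPM use TMM-scaled totals of 12 libraries, where 3 counts are 0.120 to 0.158 CPM. On simulated counts with known changes, the test recovered most of them, but in each draw the share of false calls was above the Benjamini-Hochberg threshold.

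The comparison, lists and rules were chosen with earlier results of these data known. Named genes were called genes whose groups did not overlap and had a mean of 5 CPM or more on one side, first by change and first by abundance (higher group mean) in each direction. Other named genes were chosen after their values were seen. The gene lists rest on descriptions and were not analysed here. No column was left out (0 columns).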

Additional observations from a re-analysis of the deposited data

Results flagged for a closer look

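Each of the 4 genes named for the contrast of e15 with e19 differed between the events in edgeR's test of that difference, the contrast they were selected from. Glyma.05G236500 and Glyma.09G235400 were higher in e15, with fitted log2 differences (e15 over e19) of 9.81 and 0.89. Glyma.06G273700 and Glyma.05G166600 were lower in e15, with differences of -7.78 and -0.41. The fitted values of Glyma.05G236500, with 0 counts in e19, and of Glyma.06G273700, with 2 counts in e15, move with the prior count, so they are not bounds. Against nulls 4 to 6, the log2 change of Glyma.09G235400 was 2.26 in e15 and 1.37 in e19, and that of Glyma.05G166600 was -0.47 in e15 and -0.05 in e19. Nulls 1 to 3 averaged 491 CPM for Glyma.05G166600, below the means of both events. Among the 6 nulls, no single library stood apart from the others by Dixon's ratio in the 9 sets of values that could be examined. That ratio looks for a lone library and cannot flag a split of nulls 1 to 3 from nulls 4 to 6. Such a split was seen for Glyma.15G119700, at 313 to 341 CPM in nulls 1 to 3 and 708 to 861 CPM in nulls 4 to 6.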

How the results depend on the processing

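The 121 genes of the mean of both events against nulls 4 to 6 became 207 with no filter on low counts, 3101 with nulls 1 to 3 in place of nulls 4 to 6 and 50 with the events as 1 group, and 78 to 160 when single libraries were left out. With all 6 nulls the count was 82, and 55 of the genes were shared. The 6 other settings within 1.5 times included DESeq2's Wald test (120 genes, 106 shared). For e15 against e19 the 216 genes became 396 with no filter and 341 with all 12 libraries in 4 groups, and 106 to 270 without single libraries. In the 6 event libraries alone the count was 145, and with the replicate number as a block it was 123. Same-numbered libraries of the events correlated at -0.05, 0.01 and -0.03 in their deviations, so no pairing by number was seen. With 3 libraries per event these values cannot exclude a pairing, and the labels do not say. Nulls 4 to 6 share no number with the events, and no block was possible there. With no filter, e15 had 459 and e19 122 genes against nulls 4 to 6. Without single libraries these counts were 144 to 348 and 33 to 109. Against all 6 nulls, DESeq2's Wald test called 157 genes, and leaving out libraries gave 53 to 107. The share of the 20 most abundant genes was higher in the events by 3.59 points against all 6 nulls (exact permutation p = 0.0195) and by 5.98 against nulls 1 to 3, and by 0.584 to 1.41 without single libraries. The permutation treats 6 libraries of 2 events as separate units, so its p covers libraries and not events. The 6 nulls were also split, at 39.1% in nulls 1 to 3 and 43.9% in nulls 4 to 6. No gene named by rule reversed its direction in the contrast it was named for. Outside that check, 2 named genes did reverse in the mean of the events. Glyma.14G148300 had a log2 change of -0.45 against nulls 4 to 6 and 0.51 against nulls 1 to 3. For Glyma.05G166600 these values were -0.26 and 0.36. The split of higher and lower calls turned for e19 against nulls 4 to 6. It was 32 and 34 by library totals and 37 and 72 without e19 replicate 2. Glyma.15G119700 lost its call with the events as 1 group, and it and Glyma.08G069100 with all 6 nulls or nulls 1 to 3. The cause of these changes was not tested. Depth limits genes near 3 counts per library. The gene lists could not be run.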
